A study of Mus musculus with 12 samples.

Results

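The genes examined here were 41 genes of the extracellular matrix that encode crosslinking enzymes, elastic fibre and microfibril proteins, latent TGF-beta binding proteins, basement membrane proteins, proteoglycans, adhesive and matricellular glycoproteins, and a pair of heparin-binding growth factors. They were chosen by gene symbol from a list drawn up with earlier results of these data known. All 41 were found among the 25239 genes of the deposited expression table. Of the 2643 peaks of N6-methyladenosine (m6A) in the deposited table that compares the conditions, 9 carried the symbol of one of these genes. That table holds only part of the peaks the study called, and the others were not analysed here. HT22 is a wild-type immortalised mouse hippocampal line that is used as a model of neurons. Cells were either treated with mesaconitine (MA), a diterpenoid alkaloid of Aconitum plants, or left untreated as controls, and each condition gave 3 anti-m6A immunoprecipitation (IP) libraries and 3 input libraries, 12 in all. The series asks whether m6A on mRNA takes part in the toxicity of MA toward these cells. Nothing in the labels says that the libraries of a group came from separate cultures.

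The extracellular matrix is a meshwork that cells secrete around themselves. Its fibres are built from collagens, fibronectin and elastin, its sheets (basement membranes) from laminins, nidogens and perlecan, and its hydrated filling from proteoglycans. Lysyl oxidases link collagen and elastin chains covalently, and latent TGF-beta binding proteins store the growth factor TGF-beta in the meshwork. In the brain, neurons are surrounded by a matrix rich in proteoglycans and tenascins, whereas fibrillar glycoproteins and lysyl oxidases are mostly products of fibroblasts and vascular cells. m6A is a methyl mark on adenosines of mRNA that is written by the METTL3 and METTL14 complex, typically within the 5-base DRACH word. In MeRIP-seq, RNA fragments are pulled down with an antibody to m6A, and a region where IP reads are enriched over what the input and the background predict is called a peak. Since read totals differ between libraries, a peak can have fewer IP than input reads.

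Expression was available as the base mean, the mean of normalized read counts over libraries of both conditions. It therefore gives a level and not a change with MA, it carries no replicate error, and which libraries (input, or input and IP) entered it is not stated. Levels were compared between genes per kilobase of merged exons, except where base means are named. Base means as such are not corrected for gene length. Reads in peaks were available as 4 sums per peak, 1 for IP and 1 for input in each condition with its replicates pooled, so no difference between conditions could be tested against the spread between replicates. Intervals on these reads are 95% intervals that cover counting error only. Summed over the 2643 peaks, the reads were 288659 in control input, 267002 in control IP, 214778 in MA input and 359889 in MA IP.

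The labelled cell type was set beside marker genes, and defining neuronal markers were largely absent while mesenchymal markers were high. All 6 mesenchymal markers had a base mean of at least 1000, among them Col1a2 at 129498.4 and Vim at 110058.0. Of 9 neuronal markers, 5 were listed at 0 (Map2, Nefl, Nefm, Snap25 and Gad1), and Tubb3 at 473.4 was the only one above 100. Of 4 astrocyte markers, 2 passed 100, the glutamate transporter genes Slc1a3 at 1139.7 and Slc1a2 at 114.6. Of the other astrocyte markers, Gfap had a base mean of 0.6455 and Aqp4 was listed at 0. Per kilobase, Tubb3 at 253.4 stood above Slc1a3 at 133.5 and Slc1a2 at 8.723. None of the 10 markers of oligodendrocytes, microglia and endothelial cells reached a base mean of 100. The part of these markers in the matrix gene levels was not tested.

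Matrix genes were spread over the whole range of expression. Of the 41 genes, 36 had a base mean of at least 1, 22 of at least 1000 and 18 of at least 5000, whereas 3 lay between 0 and 1 and 2 were listed at 0. Of all 25239 genes, 14870 had a base mean of at least 1 and 1852 of at least 5000. The median level of the 36 matrix genes was 436.5 per kilobase. Over the 14500 genes with a base mean of at least 1 and a known length, the median was 169.8 per kilobase. Above that median lay 22 of the 41 genes, and 13 lay above the 90th percentile of 1275.8 per kilobase. Together the 41 genes held 1.422% of the summed base means of all genes. A single gene, Fn1, made up 50.41% of the sum over the 41 genes, and the 5 genes of highest base mean (Fn1, Lamc1, Sparc, Nid1 and Lox) made up 71.99%.

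**Figure D1:**
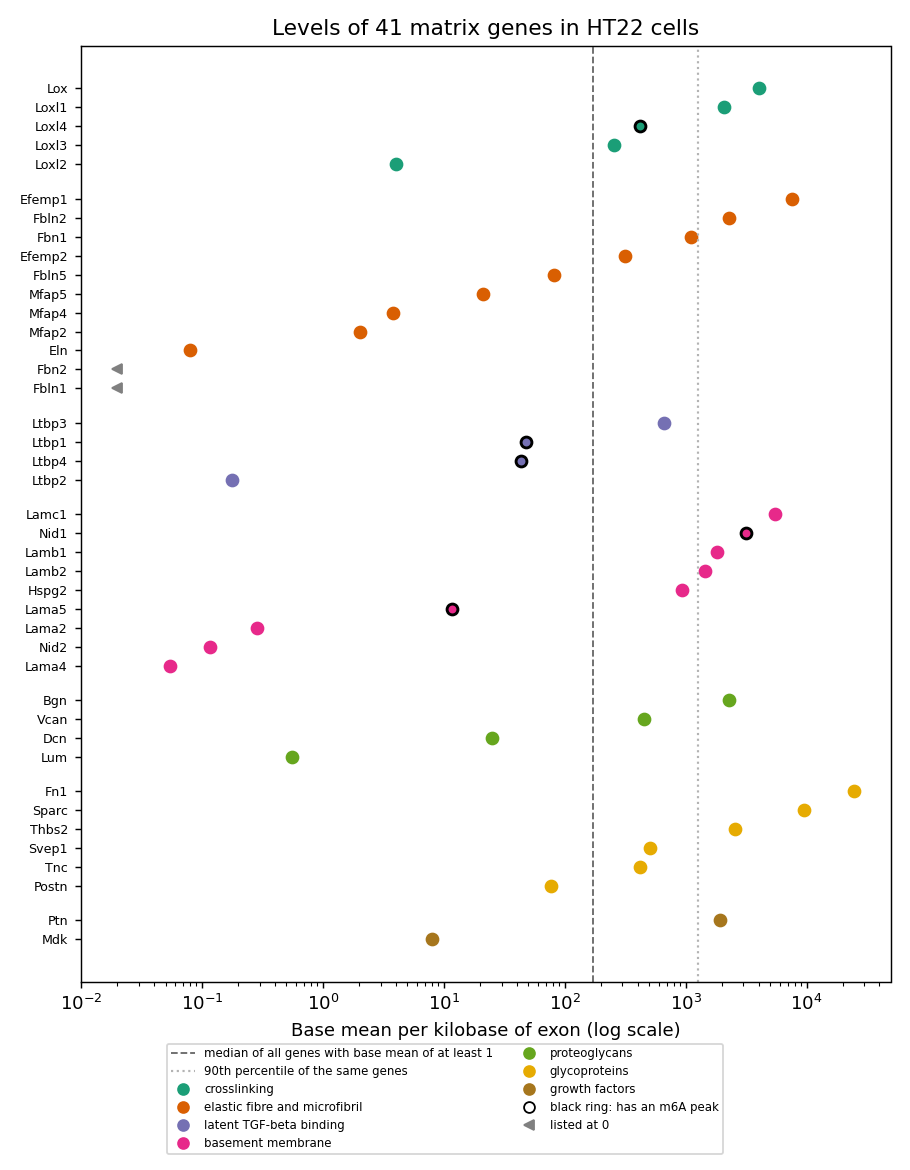
Base mean per kilobase of exon (log scale) of the 41 matrix genes, coloured by role and ordered by level within each role; each point is 1 gene, the dashed line is the median of all genes with a base mean of at least 1 (169.8), and the dotted line is their 90th percentile (1275.8). Within most roles the genes span several orders of magnitude, and genes with a black ring, which have an m6A peak, include Nid1 at 3144.9 and Lama5 at 11.8 per kilobase.

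Among the crosslinking enzymes, Lox and Loxl1 were the main transcripts. Lox, the founding lysyl oxidase, stood at 4052.7 per kilobase and its paralog Loxl1, which acts on elastin, at 2075.9 per kilobase. Together they made up 89.96% of the summed level of the 5 enzymes. Loxl4 at 422.4 and Loxl3 at 257.5 per kilobase were intermediate, and Loxl2, an enzyme that crosslinks collagen IV, was at 4.017 per kilobase, so that the level of Lox was 1009 times that of Loxl2. Loxl4 was the only one of the 5 with an m6A peak, beside 14.4% of all genes with a base mean of at least 1.

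In the elastic fibre role, several scaffold and fibulin genes were high while elastin itself was near 0. Eln, which encodes the elastic core itself, had a base mean of 0.6455. By contrast, Fbn1, the fibrillin that forms the microfibril scaffold, had a level of 1099.1 per kilobase. Its paralog Fbn2 and the fibulin Fbln1 were listed at 0. The fibulin family differed widely, from Efemp1 (fibulin-3) at 7581.8 and Fbln2 at 2275.3 per kilobase down to Efemp2 (fibulin-4) at 312.6 and Fbln5 at 81.79 per kilobase. Efemp1 thus exceeded Efemp2 by 24.25 times, and Fbln2 exceeded Fbln5 by 27.82 times. With the longest transcript as gene length, these ratios were 16.87 and 31.23. Efemp2 and Fbln5 are fibulins that elastic fibre assembly requires. The microfibril-associated genes were lower still, with Mfap5 at 21.17, Mfap4 at 3.804 and Mfap2 at 2.021 per kilobase. None of the 11 genes of this role had an m6A peak in the table. Of the 11, 8 had a base mean of at least 1, and 14.4% of all such genes had a peak.

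The latent TGF-beta binding proteins tether latent TGF-beta to fibrillin and fibronectin fibres. Ltbp3 was the main one at 657.6 per kilobase, 13.77 times Ltbp1 at 47.76 per kilobase. Ltbp4 was at 43.29 per kilobase, close to Ltbp1, and Ltbp2, the member that does not bind latent TGF-beta, was at 0.1782 per kilobase. Both genes in the middle of this order, Ltbp1 and Ltbp4, carried m6A peaks, and Ltbp3 had none in the table. Of all genes with a base mean of at least 1, 14.4% had a peak.

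Basement membrane laminins are trimers of an alpha, a beta and a gamma chain, and here the genes of the widely used chains beta-1, beta-2 and gamma-1 were high while those of alpha chains were low. Lamc1 was at 5469.5, Lamb1 at 1815.4 and Lamb2 at 1432.6 per kilobase. The highest of the 5 alpha chain genes, Lama5, was at 11.8 per kilobase, with Lama2 at 0.2878 and Lama4 at 0.05449 per kilobase. With Lama1 and Lama3 added, which were not among the 41 genes, the alpha chains summed to 12.37 per kilobase, of which Lama5 made up 95.39%. The level of Lamc1 was 463.4 times that of Lama5, or 503 times when the longest transcript was used as the gene length. The level of Lamb1 was 153.8 times that of Lama5, or 263.7 times with that length. The genes that connect laminin to the rest of the basement membrane were also high, with the nidogen Nid1 at 3144.9 and the perlecan gene Hspg2 at 927.8 per kilobase, whereas the other nidogen, Nid2, had a base mean of 0.6016.

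**Figure D2:**
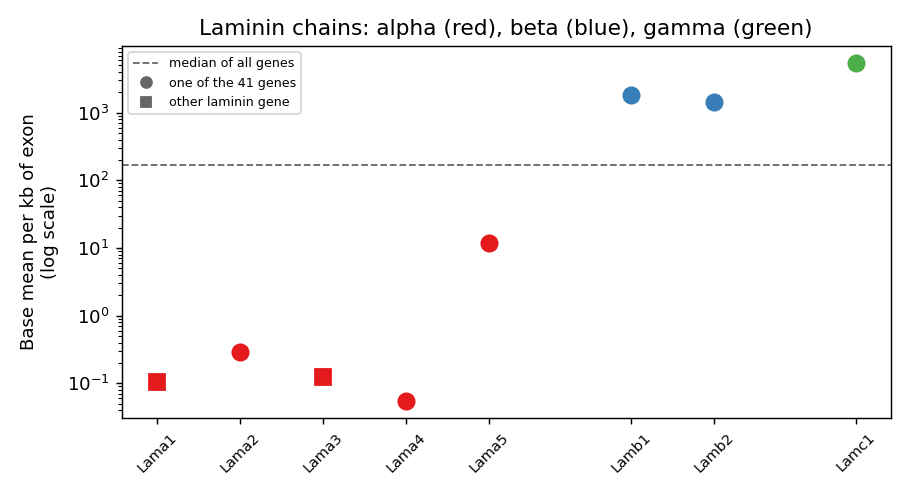
Base mean per kilobase of exon (log scale) of the 5 laminin alpha chain genes (red), Lamb1 and Lamb2 (blue) and Lamc1 (green); circles are among the 41 genes, squares are the alpha chain genes that are not, and the dashed line is the median of all genes with a base mean of at least 1 (169.8). All 5 alpha chains lie below the line, while Lamb1, Lamb2 and Lamc1 lie above it.

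Among the proteoglycans, biglycan (Bgn) was at 2297.5 per kilobase and versican (Vcan), a large hyaluronan-binding proteoglycan, at 450.5 per kilobase. Decorin (Dcn), a small leucine-rich proteoglycan like biglycan, was at 24.92 per kilobase and lumican (Lum) at 0.5521 per kilobase. The ratio of Bgn to Dcn was 92.2, and 169.5 with the longest transcript as length. Bgn made up 66.84% of the summed level of the 7 small leucine-rich proteoglycans looked at.

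The adhesive and matricellular glycoproteins were the highest role on the whole, with a median of 1522.7 per kilobase. Fibronectin (Fn1), the main adhesive protein for integrins, was at 24492.9 per kilobase. Among the 14500 genes with a base mean of at least 1 and a known length, Fn1 ranked 2 by base mean (286199.5) and 50 per kilobase. The collagen-binding protein Sparc was at 9522.0 per kilobase, and with Fn1 it was 1 of 2 matrix genes above the 99th percentile. Thbs2, an inhibitor of angiogenesis, was at 2540.6 per kilobase, the large adhesion protein Svep1 at 504.9 and tenascin-C (Tnc) at 422.5. Periostin (Postn) was the lowest of the 6 at 76.45 per kilobase. Of the growth factor pair, pleiotrophin (Ptn) was at 1932.2 per kilobase and midkine (Mdk), its only paralog, at 8.048, a ratio of 240.1.

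A further 40 matrix genes from a second list (other laminin chains, thrombospondins, syndecans, glypicans and the like) had a median of 199.8 per kilobase over the 31 with a base mean of at least 1, with 17 above the median of all genes and 8 listed at 0. The highest was Ccn1, a matricellular protein, at 22247.2 per kilobase.

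Of the 41 matrix genes, 5 had at least 1 m6A peak in the table: Lama5 and Loxl4 with 2 peaks each, Ltbp1 with 3, and Ltbp4 and Nid1 with 1 each. That is 5 of 36 genes with a base mean of at least 1, beside 14.4% of all such genes, and how many have a peak outside this table was not analysed here. The share of genes with a peak differed with expression, and was 18.55% at a base mean from 100 to 1000 and 13.28% at 5000 or more. Of the 6 matrix genes between 100 and 1000, 3 had a peak (Lama5, Ltbp1 and Ltbp4), and of the 18 at 5000 or more, only Nid1 had one. Fn1, Sparc, Lamc1 and Lox, the abundant ones, have no row in the peak table, which does not show that their mRNA carries no m6A.

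**Figure D3:**
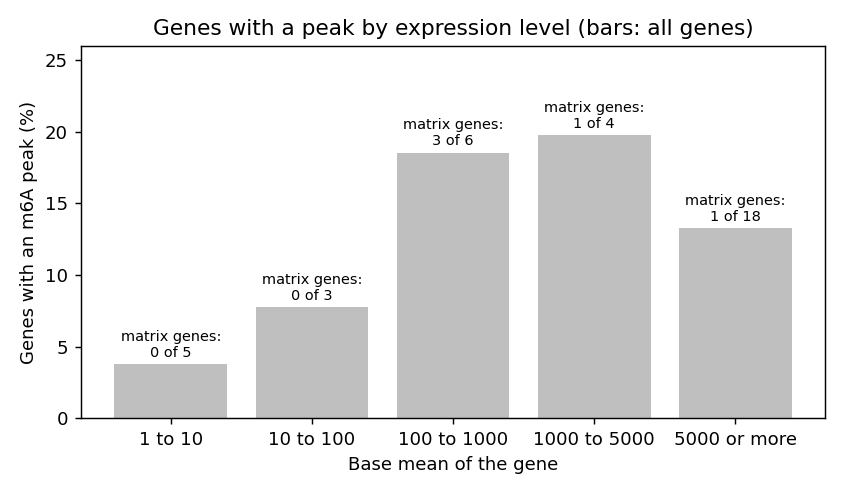
Percentage of genes with at least 1 m6A peak (vertical axis) in bins of base mean (horizontal axis); bars are all genes with a base mean of at least 1, and the text over each bar counts the matrix genes with a peak. The matrix genes with a peak fall in the 3 upper bins, with 3 of 6 between 100 and 1000, 1 of 4 between 1000 and 5000, and 1 of 18 at 5000 or more.

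Loxl4 peak 2 could not be placed on a GENCODE transcript and lay in the 3′ UTR in the RefSeq annotation. The 8 peaks that could be placed on GENCODE transcripts all lay wholly inside coding sequence, beside 51.27% of all 2522 peaks on coding transcripts. Their exonic sequences are shown because 7 of the 8 hold the DRACH word (A, G or T; then A or G; then A; then C; then A, C or T), which is in capitals. They are read 5′ to 3′ on the transcribed strand from GRCm38 (mm10), with introns removed. The peak coordinates include introns, so that Lama5 peak 1 spans 13029 genomic bases and Ltbp1 peak 1 spans 17594 for 175 exonic bases each.
Lama5 peak 1: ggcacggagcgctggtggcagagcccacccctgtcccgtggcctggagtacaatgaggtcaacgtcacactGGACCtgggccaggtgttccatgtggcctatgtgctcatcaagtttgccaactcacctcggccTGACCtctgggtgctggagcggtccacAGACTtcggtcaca
Lama5 peak 2: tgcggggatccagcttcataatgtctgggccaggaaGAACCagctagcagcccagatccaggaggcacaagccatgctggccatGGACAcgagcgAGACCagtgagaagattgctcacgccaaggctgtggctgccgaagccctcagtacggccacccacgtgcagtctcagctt
Loxl4 peak 1: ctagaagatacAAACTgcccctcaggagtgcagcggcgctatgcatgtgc
Ltbp1 peak 1: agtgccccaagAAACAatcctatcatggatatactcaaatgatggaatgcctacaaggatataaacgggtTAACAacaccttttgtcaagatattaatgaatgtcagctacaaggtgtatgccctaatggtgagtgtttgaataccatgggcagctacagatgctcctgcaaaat
Ltbp1 peak 2: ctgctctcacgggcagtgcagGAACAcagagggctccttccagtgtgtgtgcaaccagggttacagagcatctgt
Ltbp1 peak 3: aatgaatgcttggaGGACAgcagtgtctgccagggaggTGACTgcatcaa
Ltbp4 peak 1: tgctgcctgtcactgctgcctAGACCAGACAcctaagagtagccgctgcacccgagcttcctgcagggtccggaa
Nid1 peak 1: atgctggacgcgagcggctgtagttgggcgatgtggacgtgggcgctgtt

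Lama5 peak 1 (chr2:180208281-180221309, minus strand) covered exons 2 to 3 of 79 and held 3 DRACH words, and Lama5 peak 2 (chr2:180181669-180182449, minus strand) covered exons 58 to 59 and also held 3. Loxl4 peak 1 (chr19:42598057-42598725, minus strand) covered exons 12 to 13 of 15. Ltbp1 peak 1 (chr17:75248979-75266572, plus strand) covered exons 8 to 10 of 34, with peak 2 (chr17:75315031-75315105) in exon 22 and peak 3 (chr17:75320976-75321025) in exon 23. Ltbp4 peak 1 (chr7:27335517-27335708, minus strand) covered exons 2 to 3 of 33, and its words AGACC and AGACA stand side by side. Nid1 peak 1 (chr13:13437702-13437751, plus strand) was the first 50 coding bases of exon 1 of 20, began at the start codon, and held no DRACH word. The ninth peak, Loxl4 peak 2 (chr19:42593029-42593078, minus strand), lay past the end of the GENCODE gene and, in the RefSeq annotation, in the 3′ UTR, 2255 bases after the stop codon, with 1 DRACH word.

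The DRACH word was thus in 87.5% of the 8 placed peaks, beside 73.98% of 2583 peaks overall. Longer windows hold the word more often by their length. Among peaks of 50 to 75 exonic bases, 4 of 5 matrix gene peaks held it, beside 66.33% of 1497. A match is a description of the letters and does not show that the adenosine in it was methylated. Sequences of the 3 single-exon peaks were identical to the genome at the stated coordinates.

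Over all peaks together, MA cells had a higher IP share of reads than control cells. Over the 2643 peaks, IP reads made up 48.05% of IP plus input reads in control and 62.63% in MA cells, and over the 9 matrix gene peaks 48.44% and 65.23%. The median peak had a 1.87-fold higher ratio of IP to input in MA than in control cells (0.90 on the log2 scale). Depth and true methylation cannot be told apart in this overall shift, so the change of each peak was expressed relative to the median peak, on log2 of reads plus 0.5, and called past the fold when it exceeded 1.5-fold either way.

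Relative to the median peak, 2 of the 9 matrix gene peaks were past 1.5-fold higher in MA cells, beside 27.6% of all peaks, and 3 were past 1.5-fold lower, beside 25.7% of all peaks. These shares are close to the background. The interval of the change lay wholly above 0 for 2 of the 9 peaks, beside 22.5% of all peaks, and wholly below 0 for 2, beside 22.6%.

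**Figure D4:**
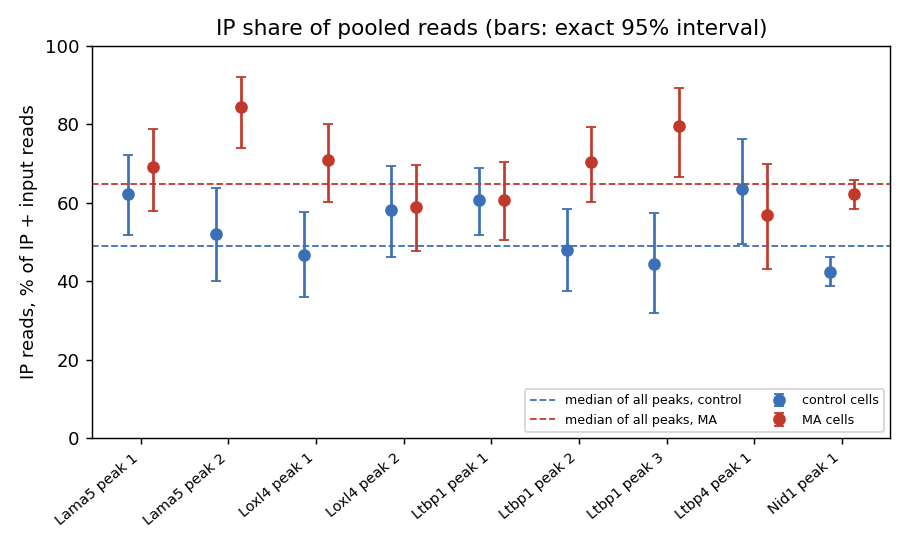
IP reads as a percentage of IP plus input reads (vertical axis, 0 to 100) in each of the 9 peaks, with control cells in blue and MA cells in red; bars are exact 95% binomial intervals of reads pooled over 3 libraries of each kind, and dashed lines are the medians of all peaks, 48.92% in control and 64.77% in MA cells. Lama5 peak 2 and Ltbp1 peak 3 reach 84.51% and 79.63% in MA cells, while Ltbp4 peak 1 is at 63.64% in control and 56.9% in MA cells.

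Lama5 encodes the laminin alpha chain that was highest in these cells, and its peaks had changes of opposite sign relative to the median peak, though not without centring, where they were 0.43 for peak 1 and 2.28 for peak 2. Peak 2 had 36 input and 39 IP reads in control, and 11 input and 60 IP reads in MA cells, so its IP share was 52.0% (40.15 to 63.69) in control and 84.51% (73.97 to 92.0) in MA cells. Its change was 1.38 on the log2 scale (0.26 to 2.50), with 89.75% of all peaks below it. Peak 1, near the start of the coding sequence, had 35 input and 58 IP reads in control and 25 and 56 in MA cells, a change of -0.48 (-1.38 to 0.43). The difference between the peaks was 1.85 (0.42 to 3.29).

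Ltbp1, which anchors latent TGF-beta to the matrix, had a comparable spread over its 3 peaks. Peak 3 had 35 input and 28 IP reads in control and 11 and 43 in MA cells, a share of 44.44% and 79.63% and a change of 1.33 (0.16 to 2.51). Peak 2 had 49 and 45 reads in control and 28 and 67 in MA cells, and its change of 0.46 (-0.40 to 1.32) was not past the fold. Peak 1 had 52 and 80 reads in control and 40 and 62 in MA cells, shares of 60.61% and 60.78%, and a change of -0.89 (-1.65 to -0.13). The difference of peak 3 from peak 1 was 2.23 (0.83 to 3.63) and that of peak 2 from peak 1 was 1.36 (0.21 to 2.50). Peaks 3 and 2 differed by 0.87 (-0.59 to 2.33), within counting error. How often peaks of the same gene differ this much elsewhere in the series was not examined, for Ltbp1 or for Lama5 and Loxl4.

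Both peaks with the highest change had only 11 input reads in MA cells, and their log2 change of input reads, MA minus control and relative to the median peak, was -1.20 for Lama5 peak 2 and -1.16 for Ltbp1 peak 3. Of the 238 peaks in the series with 11 or fewer MA input reads, 57.98% were past 1.5-fold higher. In the 3 matrix gene peaks past 1.5-fold lower, the same input change was 0.78 for Ltbp4 peak 1, 0.60 for Loxl4 peak 2 and 0.09 for Ltbp1 peak 1. The part of input reads in the changes of these higher and lower peaks was not tested.

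Ltbp4, required for elastic fibre assembly with fibulins, had 20 input and 35 IP reads in control and 25 and 33 in MA cells, and the change of its peak was -1.30 (-2.38 to -0.22), with 9.686% of all peaks below it. Loxl4 peak 2 in the 3′ UTR had 31 and 43 reads in control and 34 and 49 in MA cells, and its change of -0.85 (-1.76 to 0.06) was past 1.5-fold with an interval that reached 0. Loxl4 peak 1 had 47 and 41 reads in control and 25 and 61 in MA cells, and its change of 0.56 (-0.34 to 1.46) was just inside the fold. Peak 2 differed from peak 1 by -1.41 (-2.69 to -0.13). Without centring on the median peak, none of the 9 peaks was past 1.5-fold lower, beside 204 of all 2643 peaks. Past it higher were 5 of the 9, beside 1691 of all 2643. The values of Loxl4 peak 2 and Ltbp1 peak 1 were then 0.06 and 0.01.

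Nid1, the nidogen that bridges laminin and collagen IV, had the deepest of the 9 peaks, with 406 input and 299 IP reads in control and 253 and 417 in MA cells. Its IP share of 42.41% (38.73 to 46.16) in control and 62.24% (58.45 to 65.92) in MA cells followed the shift of all peaks, and its change relative to the median peak was 0.26 (-0.05 to 0.57). The other 8 peaks had between 11 and 80 reads in each of the 4 groups, and the intervals of the 9 peaks reached a median of 0.90 on the log2 scale to either side of the value.

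**Figure D5:**
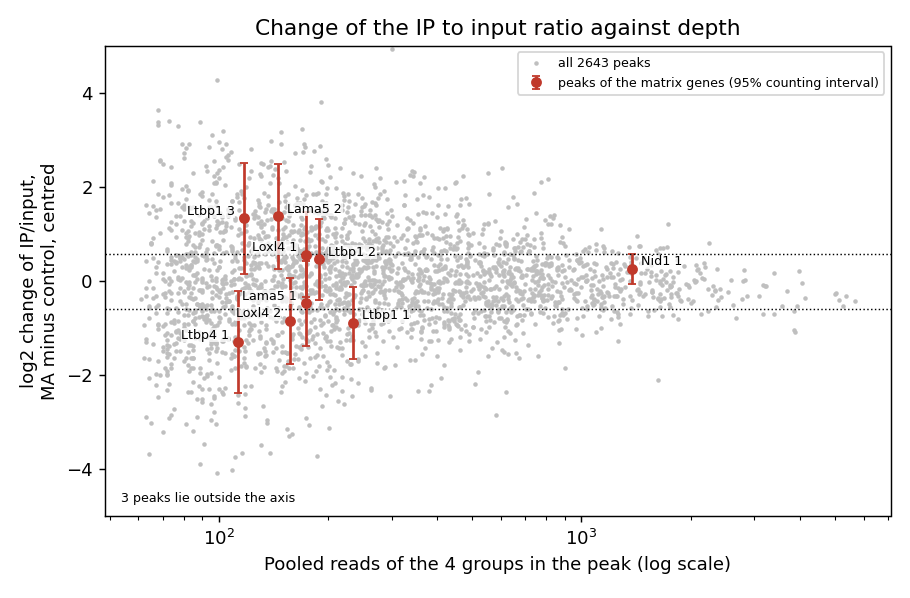
Log2 change of the IP to input ratio, MA minus control and centred on the median peak (vertical axis), against pooled reads of the 4 groups in the peak (horizontal axis, log scale); grey points are all 2643 peaks, red points are the 9 matrix gene peaks with 95% counting intervals, dotted lines mark 1.5-fold, and 3 peaks lie outside the axis. All red points but Nid1 sit at low depth, where the grey points are widely spread, and Nid1 sits at 1375 reads close to 0.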

How the data were processed

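MeRIP-seq libraries of HT22 cells were analysed from the deposited tables, 3 IP and 3 input libraries for each of MA and control cells. According to the methods of the study and the submitters' processing notes, the authors aligned reads to mm10 with HISAT2, quantified with StringTie, computed expression with DESeq2 and called peaks with exomePeak2; versions are not given in the sources used here. Expression was deposited as the base mean, a normalized signal that averages counts after division by size factors; which libraries entered it is not stated. For each peak, the deposited read counts sum the replicates of a group. The tables held 0 columns of single libraries. Columns with the authors' own comparisons (fold changes, their errors, p-values and scores of expression and methylation) were not used, so no change of expression with MA is given.

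Levels were divided by merged exon length (GENCODE M21), with a base mean of at least 1 as the filter for medians and percentiles. Changes of the IP to input ratio used a pseudocount of 0.5 and were centred on the median peak. Their counting intervals used the reads plus 0.5, and shares had exact Clopper-Pearson intervals. Unique molecular identifiers were in the library kit, but whether the counts used them is not stated. Peaks of other matrix genes were read in the same way, and 1 of these is not reported here. The peak script was tested on simulated data. Genes with m6A peaks, the highest and lowest of each role and those listed at 0 were named by rule, with others added after their values were seen. The members and lists were chosen with earlier results of these data known. Python 3.11.15, numpy 2.4.6, pandas 2.3.3 and scipy 1.17.1 were used.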

Additional observations from a re-analysis of the deposited data

How the results depend on the processing

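Every peak was a sum of reads over replicates, so no replicate could be left out. No paired analysis was possible because the reads are pooled over replicates. The count of matrix gene peaks past the fold was 5 at 1.5-fold, 8 at 1.2-fold and 3 at 2-fold, beside 53.35%, 77.83% and 31.14% of all peaks. It was 6 when scaled by total reads, beside 53.2% of all peaks, and 5 without centring (5 higher and 0 lower), beside 71.7%. Among the 7 matrix gene peaks with at least 20 reads in each group it was 4, beside 45.97% of all such peaks. Without centring, the values of all peaks moved by 0.90, the share of higher calls among all calls was 89.23% instead of 51.77%, and Loxl4 peak 2, Ltbp1 peak 1 and Lama5 peak 1 turned to 0.06, 0.01 and 0.43. With the longest transcript as gene length, the median level was 500.2 per kilobase and 22 genes lay above the median of all genes. Without the filter on low values, 30 did. The DRACH share stayed at 87.5% with RRACH (first base A or G) and in the central 100 bases. Scaling by total reads and pseudocounts of 0 or 1 moved none of the 9 changes beyond its counting interval.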

Other observations

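In the second matrix list, Gpc6, Mfap3l and Sdc1 had 1 peak each, in the 5′ UTR for Gpc6 and Mfap3l and in the 3′ UTR for Sdc1. Gpc6 encodes a glypican, a heparan sulfate proteoglycan of the cell surface, and its change was 0.24 (-0.45 to 0.93). The changes of Mfap3l and of the syndecan gene Sdc1 were 0.76 (-0.01 to 1.52) and -0.65 (-1.75 to 0.44), and both intervals reached 0.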
